A study of Mus musculus with 8 samples.

Results

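The ubiquitin-specific proteases (USPs) are the largest family of deubiquitinases, the enzymes that take ubiquitin off proteins. Genes were taken as members where the symbol begins with Usp and a number, leaving out Usp18. Of the 23282 rows in each count table, 55 met that rule, and 43 of these had enough counts to be tested, among 13174 genes tested in all. Of the other 12, 6 had no count in any library (Usp9y and 5 copies of Usp17l). The remaining 6, which were Usp29, Usp43, Usp44, Usp50, Usp51 and Usp26, summed to at most 54 counts over the 8 libraries. Usp6nl met the rule by its symbol but encodes an activator of Rab GTPases, not a protease, and it passed no test.

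Proteins are marked for the proteasome by chains of ubiquitin that E1, E2 and E3 enzymes build, and deubiquitinases trim or remove those chains. Most USPs are cysteine proteases that share a catalytic core and differ in the partners and cell compartments that bring them to a substrate. In skeletal muscle the pathway is best known from wasting, where muscle-specific E3 ligases mark contractile proteins for degradation. Usp14 and Usp19 are family members often discussed there: the first acts on the proteasome and the second is anchored in the endoplasmic reticulum.

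The RNA came from C57BL/6 mice with a listed age of 4 weeks, and was taken from the gastrocnemius of the calf. The series addressed cancer cachexia, muscle NF-kB and muscle E3 ligases. By title, 3 Normal libraries came from mice given 100 µl of saline under the skin, and 3 Control libraries from mice given 1000000 LLC (Lewis lung carcinoma) cells, a mouse lung tumour line, in the same volume. After 2 weeks both groups received 200 µl of water by mouth daily for 2 weeks. The 2 RP libraries came from tumour-bearing mice that received 100 mg/kg of a 30% ethanol extract of Paeonia lactiflora (RP) in place of plain water. No group received the extract without a tumour, and a single tumour line was used. Nothing in the labels ties a library to an animal of its own. The p-values therefore rest on the spread between libraries, which may be technical.

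The labels of 6 libraries conflict. In all 6 Normal and Control samples, the deposited table is named and headed for the opposite group. Groups below follow the titles, and "titled Normal" and "titled Control" mean that. If the names of the tables hold instead, each difference between these groups changes its sign, and the comparisons of RP with titled Control and with titled Normal exchange places.

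Libraries held 9528011 to 12333767 counts. Levels are given as counts per 1000000 of the normalized library size (CPM), in which 1 CPM stood for 9.28 to 11.3 counts. All 8 skeletal muscle markers were present, and 2 of them moved with the groups. Pvalb, a calcium buffer of fast fibres, was 2.17-fold higher in titled Control (adjusted p 6.70e-04) and 2.28-fold higher in RP (adjusted p 0.00247) than in titled Normal. Mb (myoglobin) was 1.45-fold higher in titled Control (adjusted p 0.0466). Haemoglobin genes took 4.57, 9.56 and 19.7% of counts in titled Normal libraries 1 to 3. They took 1.47, 1.61 and 1.41% in titled Control and 0.862 and 3.83% in RP. All 6 haemoglobin genes, all 3 tested erythroid genes and all 7 tested neutrophil genes were lower in titled Control than in titled Normal. Summed neutrophil markers were 930 to 1930 CPM in titled Normal, 11.4 to 20.5 in titled Control, and 35.0 and 490 in RP. The neutrophil gene Ltf had 0 counts in every titled Control library and in RP 1. Of 6 fibroblast and tendon genes, 4 were higher in titled Control, with sums of 5124 to 7739 CPM in titled Normal, 7420 to 8259 in titled Control, and 6767 and 6985 in RP. In titled Control 1 of 4 endothelial genes was also lower and 1 of 3 Schwann cell genes higher. From titled Control to RP, 2 of 7 neutrophil genes were higher and 1 of 3 Schwann cell genes lower. From titled Normal to RP, 3 of 6 fibroblast and tendon genes were higher, and 2 of 3 erythroid, 1 of 7 neutrophil and 1 of 3 Schwann cell genes were lower. Over all genes tested, 10.4% differed at an adjusted p under 0.05 between titled Control and titled Normal. Between RP and titled Control it was 0.175%, and between RP and titled Normal 2.5%. These markers moved with the groups that the USP genes are compared across, and their part in the results was not tested. Haemoglobin was a covariate in fits given below, but its share of counts was higher in each titled Normal library than in any other. Those fits therefore cannot tell haemoglobin apart from a difference to titled Normal.

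Between titled Control and titled Normal, Usp2 rose 1.87-fold, and Usp28 and Usp46 fell 2.03-fold and 2.06-fold. These 3 were the members that passed, of 43 (6.98%). Over all genes tested, 10.4% passed (4.99% higher and 5.45% lower). At an unadjusted p under 0.05 the shares were close, 27.9% of members and 26.3% of all genes. A difference of the family from all genes was not tested. Genes passed at an adjusted p under 0.05, from the quasi-likelihood test of edgeR with Benjamini-Hochberg adjustment over all 13174 genes. In bulk muscle, fewer cells of a type and less RNA per cell cannot be told apart.

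The sequence before the start site is shown for these 3 genes because they are the members whose level differed. Each line gives the 150 bases before a RefSeq start on build GRCm38.p6, 5′ to 3′ on the gene's strand, with matches to the GC-box letters GGGCGG on either strand in capitals. The windows are chr9:44084770-44084919 on the plus strand for Usp2, chr9:48985235-48985384 on the plus strand for Usp28 and chr5:74068412-74068561 on the minus strand for Usp46. The Usp2 and Usp28 starts lie downstream of the first annotated base of their genes. All of the Usp2 window and part of the Usp28 window therefore lie within the annotated gene.
Usp2: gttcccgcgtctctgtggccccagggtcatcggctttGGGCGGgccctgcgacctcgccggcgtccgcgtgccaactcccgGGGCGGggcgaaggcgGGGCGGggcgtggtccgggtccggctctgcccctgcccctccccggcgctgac
Usp28: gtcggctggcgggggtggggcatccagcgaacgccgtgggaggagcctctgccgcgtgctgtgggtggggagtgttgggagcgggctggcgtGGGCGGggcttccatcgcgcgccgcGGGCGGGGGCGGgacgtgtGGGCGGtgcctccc
Usp46: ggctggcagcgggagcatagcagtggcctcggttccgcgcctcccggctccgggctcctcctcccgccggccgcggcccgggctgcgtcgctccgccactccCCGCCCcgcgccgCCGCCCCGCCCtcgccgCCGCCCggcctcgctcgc
The windows held 3, 4 and 4 GC-boxes in that order, and 78.7, 78.0 and 84.0% of their bases were G or C. This motif was chosen after the sequences were seen. It was present in the same stretch of 26 of the 35 windows found for 34 members (74.3%), and of 28.6% of all 32851 windows in the RefSeq promoter table. All windows were not limited to genes with enough counts to be tested, as the members were, so these shares do not compare like sets. The gene with the higher level and the 2 with the lower level held it alike.

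A further 6 motifs were searched on both strands from 250 bases before to 50 after the start. The windows of Usp2, Usp28 and Usp46 held none of them. For Usp2 the sequence before the first annotated base of the gene was not searched. The ETS letters CCGGAAG were in 8 of the 35 windows (22.9%), against 8.86% of all windows, and those of Usp19, Usp8, Usp30 and Usp36 were among them. The E-box CACGTG, to which the clock factors bind, was in 5 windows (14.3%), against 7.15% of all. The NF-kB letters GGACTTTCC were in 1 window (2.86%), that of Usp16, against 0.344% of all. The FoxO letters TGTTTAC, the D-box TTACGTAA and the CRE letters TGACGTCA were in 0 member windows, and in 3.65, 0.119 and 1.79% of all. Here too the shares of all windows were not limited to tested genes. A match is a description of letters and not a binding site, and no match says only that these letters are not in the window.

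Usp2 encodes a protease of cyclin D1 and of clock proteins, and its transcript is rhythmic in many tissues. The gene lies at chr9:44067021-44095627 on the plus strand, where its exons overlap the antisense genes Gm39325 and Gm49380. Usp2 was at 198, 231 and 240 CPM in titled Normal, at 430, 468 and 356 in titled Control, and at 462 and 430 in RP. Each titled Control and RP library lay above each titled Normal library, and the RP values lay within the range of titled Control. The log2 change from titled Normal to titled Control was 0.90 ± 0.151 (SE, 95% interval 0.58 to 1.23), with an adjusted p of 0.00239. From titled Normal to RP it was 1.00 ± 0.165, with an adjusted p of 0.00658. From titled Control to RP it was 0.094 ± 0.167 (95% interval -0.27 to 0.46), with an adjusted p of 0.913. The rise in titled Control passed in all 18 alternative fits run, with a highest adjusted p of 0.0490. The rise in RP did not pass without RP 1 (adjusted p 0.103) or with haemoglobin as a covariate (adjusted p 0.0575).

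Usp28 encodes a nuclear protease that stabilises MYC and binds the DNA damage protein 53BP1. It lies at chr9:48985319-49042517 on the plus strand, with no exon shared with another gene. The titled Normal libraries held 56.7, 44.5 and 28.2 CPM, the titled Control libraries 19.8, 24.4 and 19.7, and the RP libraries 22.3 and 25.0. Each titled Control and RP library lay below the lowest titled Normal library, and the titled Normal libraries themselves differed about as much as the groups did. The log2 change from titled Normal to titled Control was -1.02 ± 0.219 (95% interval -1.49 to -0.55), with an adjusted p of 0.0102. From titled Normal to RP it was -0.87 ± 0.250 and did not pass (adjusted p 0.0874). The first difference did not pass without titled Control 1 (adjusted p 0.0567) or 3 (0.0605). The second passed in 4 of 18 alternative fits: without titled Normal 3 (adjusted p 0.00681), with no filter on low counts (0.00971), with DESeq2 (0.0276) and with the replicate block (0.0409).

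Usp46 encodes a protease that is activated by the WD-repeat proteins Wdr48 and Wdr20 and acts on glutamate receptors in neurons. It lies at chr5:73998726-74068411 on the minus strand and overlaps the antisense genes Usp46os1 and Usp46os2, which cannot be told apart from it without the strand. Its level was 8.37, 10.8 and 17.7 CPM in titled Normal, 6.09, 6.50 and 5.24 in titled Control, and 5.71 and 7.81 in RP. The groups did not overlap with titled Normal, and the highest value was in titled Normal 3, the library with the most haemoglobin. The log2 change from titled Normal to titled Control was -1.05 ± 0.281 (95% interval -1.65 to -0.44), with an adjusted p of 0.0316. It did not pass with limma-voom (adjusted p 0.0507), without titled Normal 2 (adjusted p 0.0606) or 3 (log2 change -0.70, adjusted p 0.104), or without titled Control 1 (0.101), 2 (0.0769) or 3 (0.128). With summed haemoglobin as a covariate the change was 0.015, with an adjusted p of 0.990. In that same fit Usp28 changed by -1.52 (adjusted p 0.0355) and Usp2 by 1.05 (adjusted p 0.0490). Haemoglobin was higher in each titled Normal library than in any other, so that fit cannot tell it apart from the group. The activating partners Wdr48 and Wdr20 stood at log2 changes of -0.23 and 0.61 (adjusted p 0.434 and 0.157), and the paralog Usp12 at a log2 change of 0.26 (adjusted p 0.442).

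**Figure D1:**
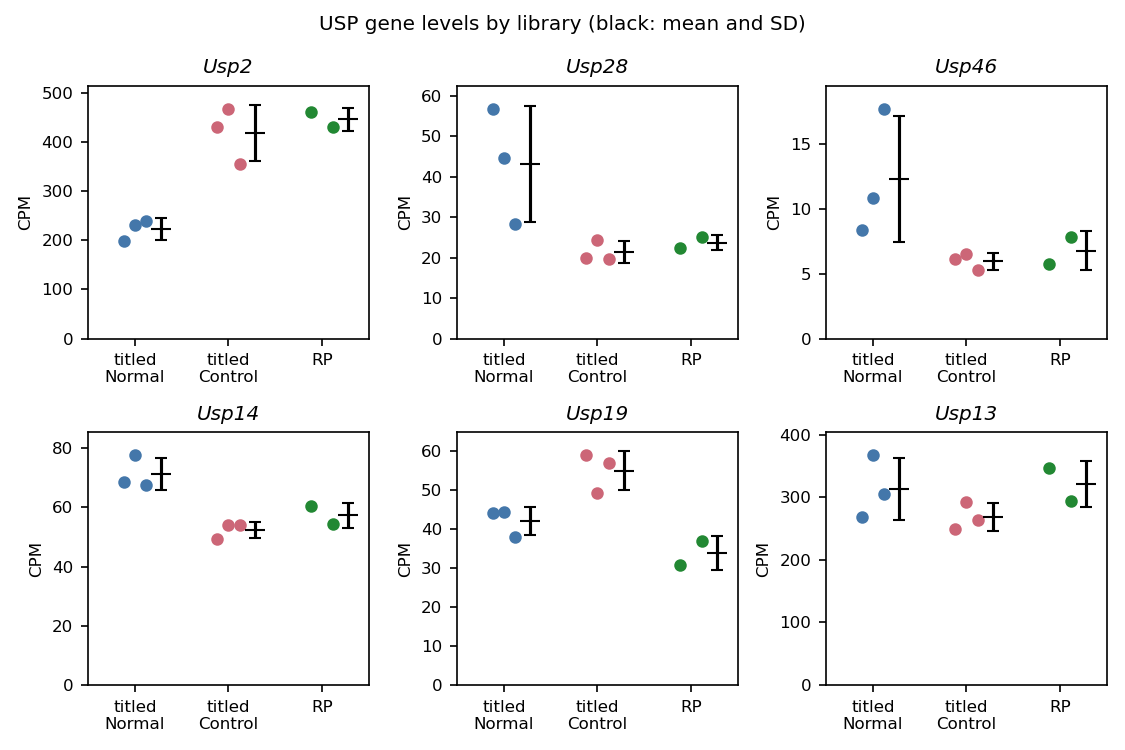
Levels (CPM, linear axes from 0) of 6 USP genes in each library, as points by titled group, with the mean and SD in black. Usp2 is higher in all 5 titled Control and RP libraries than in titled Normal, Usp28, Usp46 and Usp14 are lower in titled Control than in titled Normal, and Usp19 is lowest in RP.

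**Figure D2:**
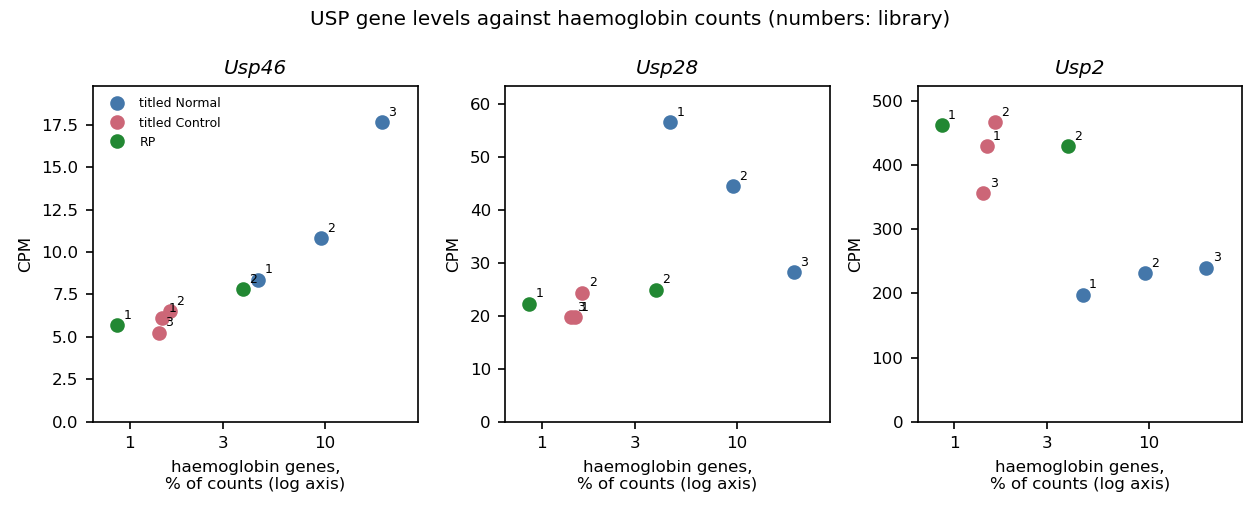
Levels (CPM) of Usp46, Usp28 and Usp2 against the percent of counts from haemoglobin genes (log axis), with 1 point per library, coloured by titled group and numbered by library. Usp46 is highest in titled Normal 3, where haemoglobin is 19.7% of counts, while Usp28 is highest in titled Normal 1, at 4.57%.

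Usp14, the protease that binds the proteasome and trims chains from its substrates, lay at the threshold. Its level was 68.7, 77.5 and 67.6 CPM in titled Normal, 49.2, 54.1 and 54.0 in titled Control, and 60.4 and 54.3 in RP. Each titled Normal library was above each of the other 5, and RP was above titled Control in both libraries. The log2 change from titled Normal to titled Control was -0.44 ± 0.133 (95% interval -0.73 to -0.16), with an adjusted p of 0.0506. It passed in 6 of 18 alternative fits: without titled Normal 1 (adjusted p 0.0305) or 3 (0.0426), with DESeq2 (0.0339), a mean CPM of at least 5 (0.0439), limma-voom (0.0497) and RLE normalization (0.04998). Without titled Normal 2 or any titled Control library the adjusted p was 0.131 to 0.210. From titled Control to RP it was 0.13 (95% interval -0.19 to 0.45), with an adjusted p of 0.852. The exons of Usp14 overlap Thoc1 on the other strand. Psmd2, the proteasome base subunit of the regulatory particle to which Usp14 binds, fell from 280 ± 81.9 to 141 ± 25.4 CPM (SD, n = 3 each; log2 change -0.99, adjusted p 0.00904).

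Usp19, a protease anchored in the endoplasmic reticulum membrane, gave the smallest p of the family between RP and titled Control. Levels were 44.2, 44.2 and 38.0 CPM in titled Normal, 58.8, 49.3 and 56.8 in titled Control, and 30.7 and 36.8 in RP. The 3 groups did not overlap, with titled Control highest and RP lowest. The log2 change from titled Control to RP was -0.70 ± 0.166 (95% interval -1.06 to -0.35), with an unadjusted p of 0.000935 and an adjusted p of 0.154. It passed with DESeq2 (adjusted p 0.0409), with no filter on low counts (0.0476) and when only these groups were fitted (0.0494). The change from titled Normal to titled Control was 0.38 ± 0.144 (adjusted p 0.109). Usp25, the other member that acts at the endoplasmic reticulum, stood at log2 changes of -0.026 and -0.15 in the same comparisons (adjusted p 0.936 and 0.849).

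Usp5 takes apart ubiquitin chains that are not attached to a protein, and Usp13 was listed in the same group. Usp13 was at 269, 367 and 305 CPM in titled Normal, 250, 292 and 263 in titled Control, and 347 and 295 in RP. The titled Normal range took in 3 of the other 5 libraries, and both RP libraries lay above titled Control. Its log2 change from titled Normal to titled Control was -0.22 (adjusted p 0.390), and from titled Control to RP 0.26 (adjusted p 0.709). Usp5 was at 17.1, 22.4 and 13.9 CPM in titled Normal, 19.7, 22.5 and 19.4 in titled Control, and 28.2 and 21.1 in RP. The groups overlapped, and its log2 change from titled Normal to RP was 0.47 (adjusted p 0.294).

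The chromatin and transcription group holds 7 members, among them the histone H2A protease Usp16, the SAGA subunit Usp22 and Usp7, which keeps the p53 ligase MDM2 stable. None passed, 5 of 7 log2 changes from titled Normal to titled Control were below 0, and the median was -0.32. Usp7 was at 112, 86.1 and 91.8 CPM in titled Normal, 74.4, 86.6 and 71.3 in titled Control, and 83.3 and 91.8 in RP. Its groups overlapped, with a log2 change of -0.32 (adjusted p 0.191). Usp27x, in the same group, had a mean under 1 CPM and a log2 change of -0.62 ± 0.748 (adjusted p 0.652), which counts this low cannot resolve.

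The genome maintenance and cell cycle group, which includes Usp1 and Usp28, holds 5 members. All 5 changes from titled Normal to titled Control were below 0 (median -0.34), and Usp28 alone passed. Of all USP genes tested, 76.7% were below 0 (median -0.20). From titled Control to RP all 5 were above 0 (median 0.12, 0 passed), as were 74.4% of all USP genes tested (median 0.13). These directions are therefore not shown to be particular to the group. Titled Control enters the comparisons with opposite signs, so they are not independent. The other groups of members are to be read against the same shares. Among 6 genes of endosome and membrane traffic, 3 changes were below 0 and 3 above, and Usp46 passed. Usp8, which spares receptors from lysosomal degradation, was at 51.9, 34.3 and 46.01 CPM in titled Normal, 33.6, 35.6 and 36.2 in titled Control, and 35.0 and 36.6 in RP. Its titled Normal 2 library lay among the others, and the log2 change to titled Control was -0.33 (adjusted p 0.223).

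Usp15 and Usp9x belong to a group of 4 that acts on growth factor signalling, including SMAD proteins of the TGF-beta pathway. All 4 changes from titled Normal to titled Control lay between -0.23 and -0.049, and none passed. Usp15 ranged from 59.7 to 84.5 CPM over the 8 libraries, with a log2 change of -0.049 (95% interval -0.38 to 0.28). Usp9x was at 40.0 CPM in titled Normal 1 and between 23.0 and 28.8 in the other 7. The 3′ ends of Usp15 and Usp9x share 50-base stretches with other annotated genes (Gm27920 for Usp15 and 3 genes for Usp9x). Those of Usp1 (with Gm5841) and Usp49 (with Gm20517) share more such stretches. A short read from these could belong to either gene. Usp30, which removes ubiquitin from mitochondria, ranged from 2.43 to 4.73 CPM, with a log2 change of 0.056 (95% interval -0.67 to 0.78). The 3 members of RNA processing and the nucleolus (Usp39, a splicing factor without protease activity, Usp36 and Usp10) all had changes below 0, from -0.52 to -0.13, and none passed.

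Usp53 and Usp54 carry a USP fold and were long annotated as inactive. Usp53 was at 3.60, 2.97 and 2.43 CPM in titled Normal, 1.499, 2.60 and 2.44 in titled Control, and 4.10 and 4.32 in RP. Both RP libraries lay above the other 6, with a log2 change from titled Control of 0.95 ± 0.385 (adjusted p 0.497). Usp54 was at 11.4, 2.30 and 5.82 CPM in titled Normal and between 2.53 and 5.17 in the other 5 libraries. Its change to titled Control was -0.84 ± 0.453 (adjusted p 0.263), and titled Normal 1 was the high library. Usp35, at 0.181 to 1.80 CPM, had the lowest change from titled Normal to RP, -1.41 ± 0.809 (adjusted p 0.405).

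Between titled Control and titled Normal, 33 of the 43 changes were below 0 (76.7%, against 49.9% of all genes) and 10 above. The median was -0.20, against 0.00043 over all genes tested, with single genes between -1.05 and 0.90. In 13 members (30.2%) each titled Control library was below each titled Normal library, against 14.7% of all genes. In 2 (4.65%), Usp2 and Usp19, each was above, against 16.6% of all genes. Beyond the 3 that passed and Usp14, the members nearest to the threshold were Usp34 (log2 -0.46, adjusted p 0.0561), Usp42 (-0.60, 0.0613), Usp16 (-0.49, 0.0791) and Usp36 (-0.52, 0.0800), named after their values were seen. There were 7 members that differed by 1.5-fold or more, and the median SE of a log2 change was 0.190. The share of all genes was not computed at that bound, but it was at nearby log2 changes. At or below -0.6 lay 13.95% of members and 10.19% of all genes. At or below 0.6 lay 97.67% of members and 88.55% of all genes, so fewer members than genes in general rose by more than that. The exons of 16 of the 43 members, Usp34 and Usp16 among them, overlap another gene.

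**Figure D3:**
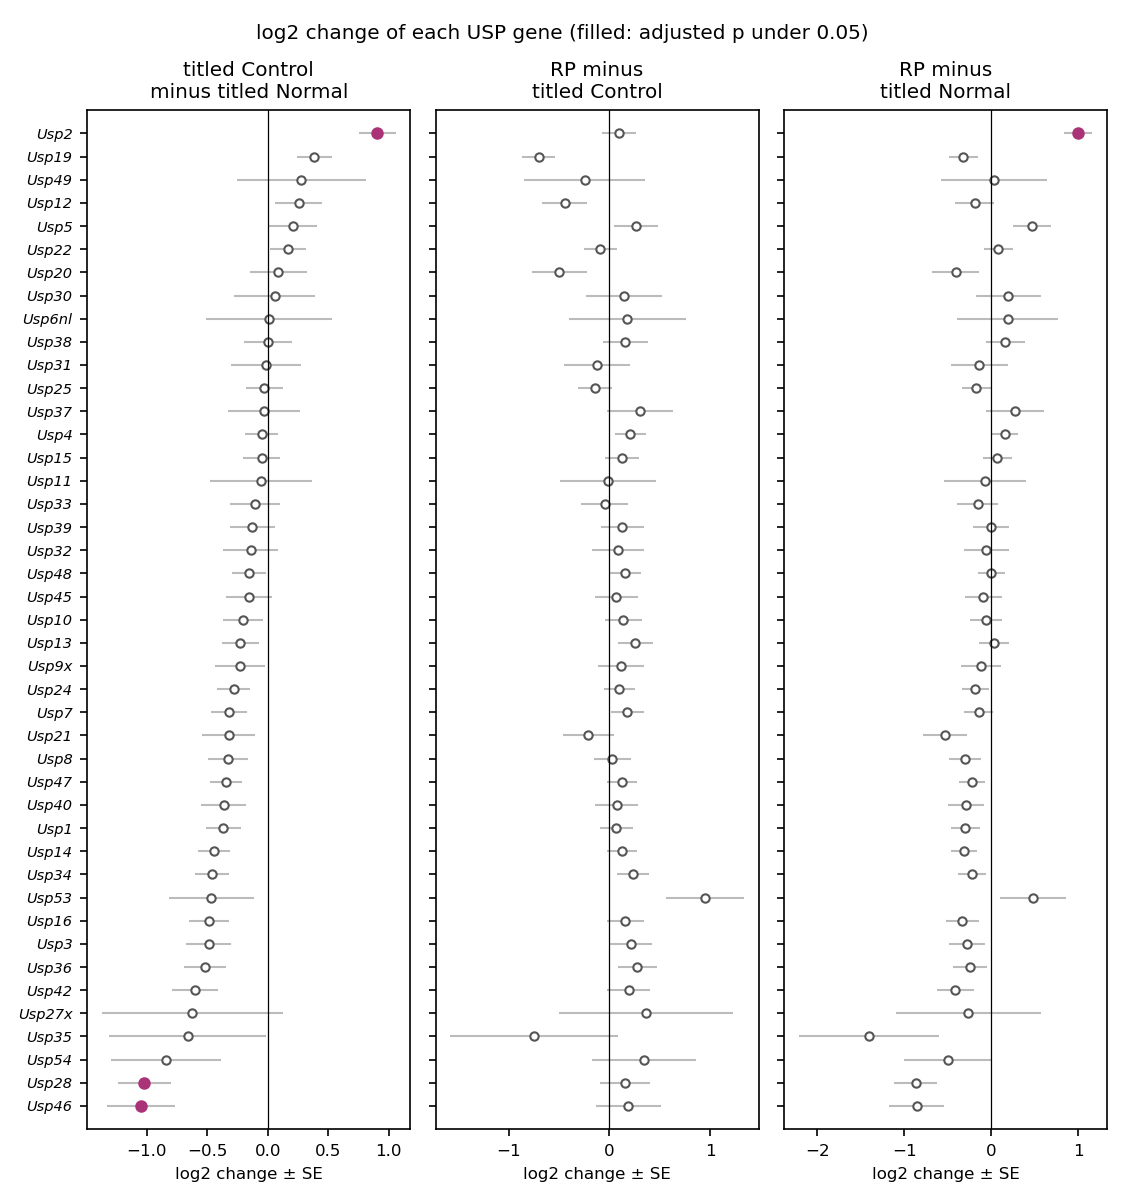
Log2 change ± SE of each of the 43 USP genes in the 3 comparisons, ordered by the change from titled Normal to titled Control, with filled points for an adjusted p under 0.05. Filled points are Usp2, Usp28 and Usp46 in the left panel, none in the middle panel, and Usp2 in the right panel.

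Between RP and titled Control no member passed, against 0.175% of all genes, with a smallest adjusted p of 0.154 by edgeR's quasi-likelihood test. At an unadjusted p under 0.05 there were 2 members (4.65%), against 8.98% of all genes, and DESeq2 called 1 (Usp19). Changes were above 0 in 32 members (74.4%, against 49.5% of all genes) and below 0 in 11, with a median of 0.13 against -0.0038 over all genes. The groups did not overlap in 7 members that were higher in RP (16.3%, against 15.3% of all genes) and in 3 that were lower (6.98%, against 16.4%). The 7 include Usp13, Usp14, Usp15 and Usp53, and the 3 include Usp19.

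Between RP and titled Normal 1 member, Usp2, passed (2.33%, against 2.5% of all genes). It was higher in RP (1.67% of all genes were), and 0 members were lower, against 0.835% of all genes. In 13 members (30.2%) each RP library was below each titled Normal library, against 15.4% of all genes, and in 2 (4.65%), Usp2 and Usp53, each was above, also against 15.4%. The median change was -0.16, against -0.037 over all genes, and 29 changes were below 0 (67.4%, against 53.8% of all genes). The 3 comparisons share libraries, so their shifts are not independent of each other: titled Control enters the first with the opposite sign to the second.

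**Figure D4:**
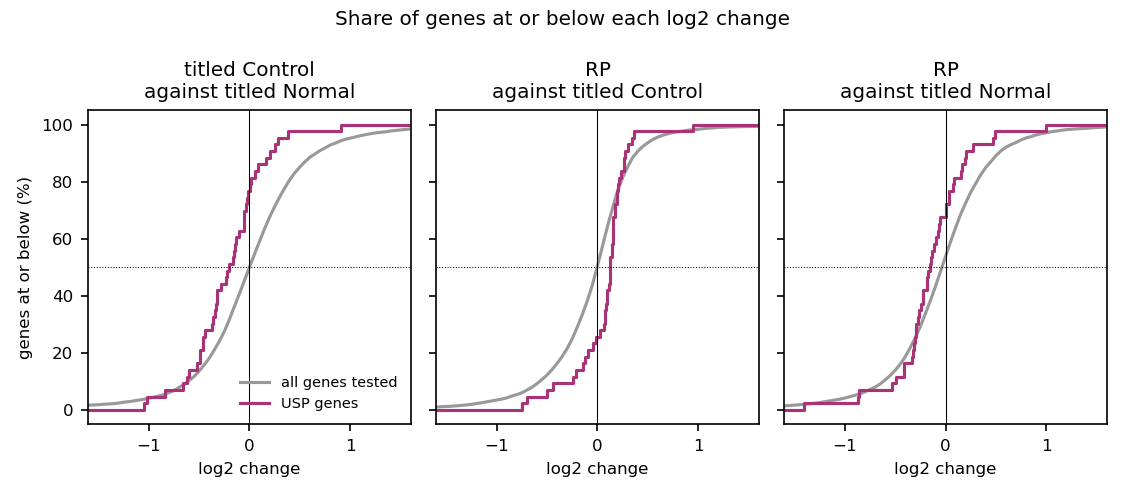
Share of genes (%) at or below each log2 change, for the 43 USP genes (steps) and all 13174 genes tested (grey), by comparison. The median of the USP genes, where the steps cross the dotted line, is -0.20, 0.13 and -0.16 from left to right.

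The summed level of the 43 members was 1866 ± 30.3 CPM in titled Normal (SD, n = 3), 1802 ± 102 in titled Control (n = 3) and 1944 ± 41.3 in RP (n = 2). The titled Normal libraries summed to 1844, 1901 and 1854 CPM, the titled Control libraries to 1771, 1916 and 1719, and the RP libraries to 1974 and 1915. Both RP sums lay above the 3 titled Normal sums, and the titled Control range overlapped with both other groups. The sum is weighted by Usp2, which rose while most members had changes below 0. The median deviation of the members from their own mean log2 level was 0.14, 0.12 and 0.087 in titled Normal. It was -0.071, -0.081 and -0.15 in titled Control and -0.036 and -0.016 in RP. The RP libraries lay between the other groups on this measure, and 22 of the 43 members had an RP mean between those of the other groups (51.2%, against 42.4% of all genes). Members varied more among titled Normal libraries, with a median coefficient of variation of 15.8%, than among titled Control libraries (9.31%), and 28 of 43 did so. The same was not computed over all genes, so this is not shown to be particular to the USP genes.

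**Figure D5:**
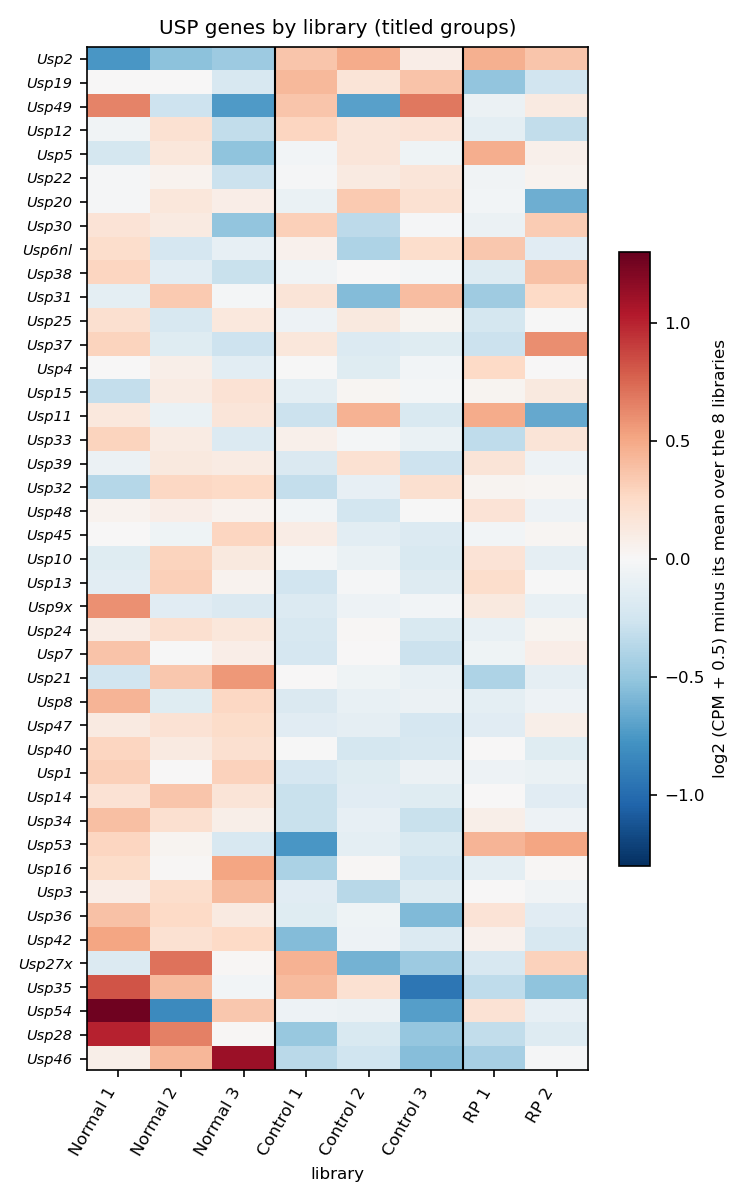
Log2 (CPM + 0.5) of each of the 43 USP genes minus its own mean over the 8 libraries, with genes in rows, ordered by the change from titled Normal to titled Control, and libraries in columns. Usp2 is low in the 3 titled Normal libraries, Usp46 is highest in titled Normal 3 and Usp28 and Usp54 in titled Normal 1.

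Of 33 tested genes that were listed as other deubiquitinases, 1 passed between titled Control and titled Normal, where 10.4% of all genes passed. All were outside the symbol rule, and the list took in Cyld, Uspl1 and Pan2. Whether each listed gene encodes a deubiquitinase was not checked. None passed with RP. The 1 that passed was Otulin, which cuts linear ubiquitin chains and so limits NF-kB signalling. It was at 34.0, 31.0 and 25.2 CPM in titled Normal, 18.2, 19.7 and 18.9 in titled Control, and 18.8 and 20.8 in RP. Titled Control and RP both lay below titled Normal, with a log2 change to titled Control of -0.67 ± 0.160 (adjusted p 0.0177). The median of the 33 was -0.19, close to that of the USP genes, with no test of a difference.

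Of 18 tested partners of USP proteins, 2 passed and both fell in titled Control, where 10.4% of all genes passed. They were Psmd2, given above with Usp14, and Hgs. Hgs, the endosomal sorting protein that works with Stam and Usp8, was at 18.3, 35.2 and 30.3 CPM in titled Normal, 11.99, 10.8 and 13.4 in titled Control, and 13.7 and 12.4 in RP. No titled Normal library overlapped with the other 5. The log2 change was -1.21 ± 0.225 to titled Control (adjusted p 0.00458) and -1.09 ± 0.258 to RP (adjusted p 0.0426). Stam stood at 0.037 and Stam2 at -0.12 in titled Control, and neither passed.

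Of 13 tested clock genes, listed because Usp2 is rhythmic, 4 passed between titled Control and titled Normal, where 10.4% of all genes passed. Dbp, an output gene of the clock, was at 57.2, 32.2 and 26.4 CPM in titled Normal, 172, 159 and 142 in titled Control, and 116 and 114 in RP. All 5 titled Control and RP libraries were above titled Normal, with a log2 change of 2.03 ± 0.236 to titled Control (adjusted p 1.89e-04) and 1.57 ± 0.252 to RP (adjusted p 0.00547). Per3 rose by 0.69 in titled Control (adjusted p 0.0395), while Arntl, a core activator of the clock, fell by 1.33 (adjusted p 0.0176) and Cry2 fell by 0.57 (adjusted p 0.0310), all on the log2 scale. Per3 in RP did not stay with Dbp and Usp2: it was at 10.7 and 8.64 CPM, below each titled Normal (17.6, 11.2 and 12.4) and titled Control library (23.5, 22.1 and 21.2). Its log2 change was -1.21 ± 0.231 from titled Control to RP (adjusted p 0.0612) and -0.51 from titled Normal to RP (adjusted p 0.279). From titled Normal to RP, Arntl stood at -1.34 (adjusted p 0.0768) and Cry2 at -0.29 (adjusted p 0.421). The labels used here give no hour of dissection.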

How the data were processed

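The authors deposited raw counts per gene symbol for each library. Libraries were made with a Lexogen Quant-Seq kit, per the labels' protocols, and Bowtie2, edgeR and mm10 are named in the submitters' processing notes. The counting tool, strand, annotation and versions are not given in the sources used here. The members, lists and tests were chosen with earlier results of these data known. The 3 comparisons were run on all 8 libraries in 1 fit in R 4.3.3 with edgeR 4.0.16 (filterByExpr, TMM, quasi-likelihood test, 2-sided, Benjamini-Hochberg over 13174 genes, threshold 0.05). The steps were tested on simulated data. SEs were derived from the F statistic. RefSeq positions matched all 43 members, and overlaps and shared 3′ ends came from GENCODE. Named genes were all members that passed, 12 chosen for their known roles (2 of which passed), the 3 largest changes that did not pass in each comparison, and up to 4 genes per list that passed. Genes outside this rule serve to describe their group. As alternatives, DESeq2 1.42.0, limma-voom (limma 3.58.1), normalization by RLE or the upper quartile, testing without a filter or above a mean of 5 CPM, fits of the 2 compared groups alone, a replicate block, haemoglobin left out or as a covariate, a threshold of 0.1 and fits lacking each library in turn were run. The medians without each library were added after the data were seen. Where an RP library was left out, the other was assumed to vary like the remaining groups. Protein sequences were not used here, and a planned gene list is not reported here. Figures were drawn with matplotlib 3.10.9.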

Additional observations from a re-analysis of the deposited data

How the results depend on the processing

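The number of USP genes that passed between titled Control and titled Normal was 3, against 5 with DESeq2 and 8 at a threshold of 0.1. Over all 13174 genes tested the counts moved the same way: 1376, against 1692 with DESeq2 and 2201 at that threshold. Leaving out 1 titled Normal or titled Control library gave 1 to 4 USP genes, and 608 to 1858 of all genes. The number of USP genes was 1 without titled Control 1 or 3, where Usp2 was the gene that passed. Between RP and titled Control it was 0, against 1 (Usp19) with no filter, with DESeq2 and with only the groups compared. Between RP and titled Normal it was 1, against 2 with no filter, with DESeq2 and at a threshold of 0.1, and 0 with haemoglobin as a covariate, and leaving out 1 library gave 0 to 2 (0 without RP 1, and 2 without titled Normal 3). The cause of these differences was not tested. The median change from titled Normal to titled Control was -0.16 with upper-quartile normalization, which moved the median of all genes to 0.045, and -0.26 to -0.14 leaving out 1 library. From titled Control to RP it was 0.074 to 0.15 leaving out 1 library. These medians are over the members tested with all 8 libraries. With members that pass the filter only once a library is left out, the outer values were -0.24 and 0.067.

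After each gene was centred on its group mean, same-numbered libraries correlated at -0.082 to 0.095 and differently numbered ones at -0.095 to 0.074. Centring ties the libraries of a group to each other, and makes the 2 RP libraries mirror images. This check therefore cannot decide whether the numbers pair the samples. With the replicate block 3, 0 and 2 USP genes passed in the 3 comparisons, Usp28 joining Usp2 in the last (adjusted p 0.0409).

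Over 17 named genes and 51 changes, 885 of 943 values under alternatives kept their direction and side of the threshold, 10 were weaker, 15 stronger and 33 reversed, none of the reversed ones passing. Most of the 51 changes had not passed and kept their side by again not passing, so this count says little about those that passed. Between titled Control and titled Normal, Usp2 passed again in 18 of 18 alternative fits, Usp28 in 16 and Usp46 in 11. With haemoglobin as a covariate the reversed log2 changes from titled Normal to titled Control were 0.33 for Usp15, 0.064 for Usp25, -0.20 for Usp30, 0.015 for Usp46 and -0.21 for Usp5. From titled Normal to RP they were 0.22 for Usp27x, -0.0027 for Usp30 and 0.036 for Usp46. Upper-quartile normalization gave 0.017 for Usp25 to titled Control and -0.0039 for Usp8 to RP, and the block gave -0.020 for Usp28, both from titled Control. Leaving out 1 library, changes from titled Normal to titled Control spanned -0.19 to 0.044 for Usp15, -0.14 to 0.056 for Usp25, -0.16 to 0.23 for Usp30 and -0.38 to 0.077 for Usp9x. From titled Control to RP they spanned -0.0091 to 0.19 for Usp2, -0.0048 to 0.060 for Usp8, -0.17 to 0.74 for Usp27x, -0.10 to 0.35 for Usp30 and -0.054 to 0.40 for Usp46. From titled Normal to RP they spanned -0.088 to 0.16 for Usp13, -0.067 to 0.19 for Usp15, -0.79 to 0.12 for Usp27x, -0.046 to 0.41 for Usp30, -0.90 to 0.19 for Usp54 and -0.24 to 0.19 for Usp9x.

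The counts over all genes moved too. Between titled Control and titled Normal 1376 genes passed, against 310 with haemoglobin as a covariate, 1838 with no filter, 1692 with DESeq2 and 2201 at a threshold of 0.1. The count was 1858, 805 and 1511 without titled Normal 1, 2 and 3, and 609, 846 and 608 without titled Control 1, 2 and 3. Between RP and titled Control 23 passed, against 204 with no filter, 112 with DESeq2, 121 with only the groups compared, 51 at a threshold of 0.1, 48 with the covariate, 11 at a mean CPM of at least 5, 10 with limma-voom and 8 to 72 leaving out 1 library. Between RP and titled Normal 330 passed, against 718 with no filter, 676 with DESeq2, 710 at a threshold of 0.1, 100 with only the groups compared, 65 with the covariate and 57 (without RP 1) to 670 (without titled Normal 1).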
